A study of Arabidopsis thaliana with 9 samples.

Results

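A group of 10 Arabidopsis genes that belong to the core response of the plant to low oxygen, and whose proteins have little or no known function, were examined on arrays of salt-treated and abscisic acid (ABA)-treated seedlings. They are the loci AT5G10040, AT1G33055, AT4G33560, AT4G10265, AT4G10270, AT3G10020, AT4G24110, AT5G66985, AT3G27220 and AT1G19530. The list was drawn up by name and chosen by earlier results on these arrays, that is, by the log2 signals of the control, NaCl and ABA groups, and the loci were then found on the array through the RefSeq accession that each probe carries. All 10 loci were found, with 14 of the 43603 non-control probes of the array, and all 10 were among the 23057 genes tested. A gene could enter the test through the NaCl arrays alone, so its presence there says nothing about its level in the control. AT5G10040 and AT5G66985 entered in this way. Because the list rests on differences between these groups, the differences of the 10 genes are given as a description, with standard errors (SE) and 95% intervals but without p-values.

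The seedlings were wild-type Columbia (Col-0), 4 weeks old, grown in pots of artificial soil and harvested whole, root and shoot together. The control group received only water, the NaCl group 150 mM NaCl for 6 h and the ABA group 10 μM ABA for 6 h, with 3 one-colour Agilent arrays in each group. The methods describe one harvest per treatment that was pooled before being split into portions, whereas the design text speaks of separate plants, so plant-to-plant variation may be missing in part from the spread between the 3 arrays of a group. In whole seedlings, a lower signal from fewer cells of a type and from less RNA per cell cannot be told apart.

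When oxygen runs short, plants stop respiring normally and rely on glycolysis and fermentation. In Arabidopsis the switch is made by ethylene response factors of group VII. In air, plant cysteine oxidases use oxygen to mark these factors for degradation, and without oxygen the factors persist and activate a small set of genes. That set holds fermentation enzymes such as alcohol dehydrogenase and pyruvate decarboxylase, sucrose synthases, a phytoglobin that removes nitric oxide, and a number of genes for small proteins to which no role has been given. The 10 genes here are of the last kind. AT4G10265 carries the annotation of a putative wound-responsive protein in the study, and the reference table used here gives no name or role for the other 9 genes. Oxygen itself is not among the measurements analysed here.

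All 10 genes lie on nuclear chromosomes as protein-coding genes in the RefSeq annotation of assembly TAIR10.1, with 2 on chromosome 1, 2 on chromosome 3, 4 on chromosome 4 and 2 on chromosome 5. They are short genes. Their median span from start to end was 878.5 bp, against 2078 bp for all 27444 nuclear protein-coding genes, and 9 of the 10 were shorter than that median. AT5G10040, at 435 bp, was the shortest, and AT3G27220, at 2693 bp, was the longest and the only one above the median. AT4G10265 and AT4G10270 are neighbours on chromosome 4, separated by 1066 bp. AT5G10040 lies wholly inside the span of TGA4 (AT5G10030), AT1G33055 shares 225 bp with AT1G33050, and AT4G10270 shares 86 bp with AT4G10280 and 377 bp with a non-coding RNA gene, AT4G05775.

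Values here are log2 signals, that is, log2 of the background-subtracted spot intensity after quantile normalization over the 9 arrays. A difference of 1 on this scale is a doubling. A gene was called different between groups at a Benjamini-Hochberg adjusted p under 0.05 in limma and a change of at least 2-fold. A spot is described as above background where the scanner software marked it as well above the background, and the percentage of such probes was between 69.1% and 72.1% on the 9 arrays. None of the 126 spots of the 10 genes was marked as non-uniform, outlying or saturated, and 113 of them were above background. Replicate arrays of a group correlated at 0.940 to 0.984 over all genes. The 3 NaCl arrays lay on 1 slide, scanned 235 days before the others, the 3 control arrays lay on another, and the ABA arrays lay on 2 further slides. Each slide thus held arrays of 1 group only, so treatment and slide cannot be told apart in any of the comparisons, and NaCl treatment and scan day cannot either. Over all genes, 2285 were called higher and 3083 lower with NaCl, 192 and 170 with ABA, and 2436 and 2269 with ABA relative to NaCl. Without scaling between arrays these splits were 1882 and 4003, 1341 and 61, and 8196 and 833, and in the deposited table of log2 values the ABA split was 222 and 129.

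To see how these genes behaved in salt-treated seedlings, the NaCl arrays were set against the control arrays. The signal of 9 of the 10 genes was higher with NaCl on all 3 arrays than on any control array. The median log2 difference of the 10 genes was 5.18 (range −0.058 to 11.41), and that of all genes tested was −0.11. Of the 10 genes, 8 met the call as higher and 0 as lower. Over all genes tested, 23.3% were called, 9.91% as higher and 13.4% as lower, and 22.7% had NaCl arrays that all lay above the control arrays. The 2 genes that did not meet the call were AT1G19530 and AT3G10020. Since the genes were chosen with this comparison in view, nothing is read from these shares.

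**Figure D1:**
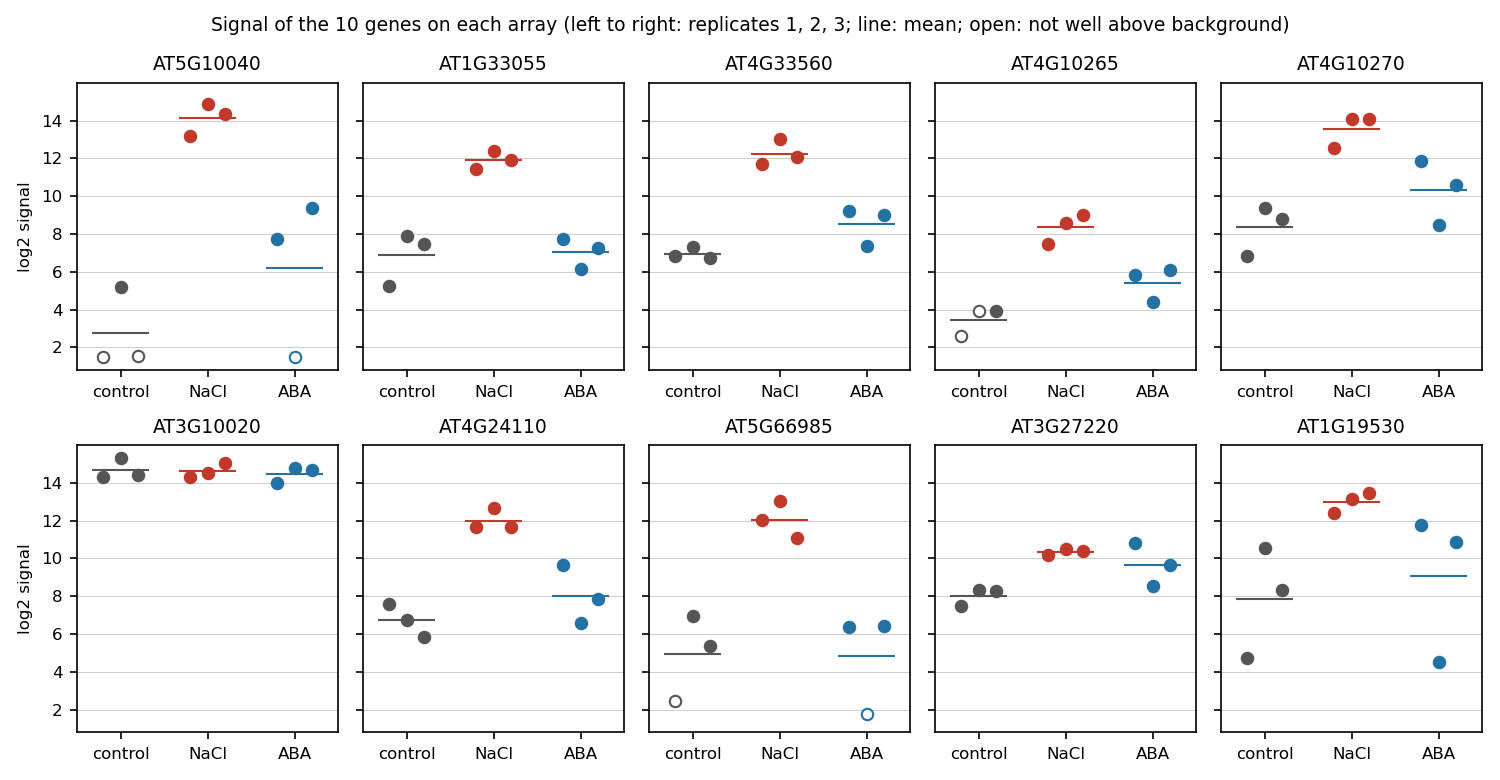
Log2 signal of each of the 10 genes on each array, 1 panel per gene, with the control, NaCl and ABA arrays from left to right, replicates 1, 2 and 3 in order within a group, and a line at the group mean. Open circles are spots not well above background. In 9 panels the 3 NaCl points lie above every control point, and in the panel of AT3G10020 the 3 groups overlap between 13.97 and 15.30.

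AT4G33560 showed the clearest separation of the salt-treated arrays relative to its spread. Its log2 signal was 6.82, 7.31 and 6.74 on control arrays 1, 2 and 3, 11.68, 13.03 and 12.06 on the NaCl arrays, and 9.20, 7.35 and 9.0 on the ABA arrays. The control arrays lay within 0.57 of one another, and the lowest NaCl array lay 4.38 above the highest control array. The difference between NaCl and control was 5.30 (SE 0.53, 95% interval 4.09 to 6.52), a 39.5-fold higher signal.

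AT4G24110 had nearly the same difference. It gave log2 signals of 7.57, 6.75 and 5.85 in the control, 11.67, 12.68 and 11.67 with NaCl, and 9.63, 6.60 and 7.84 with ABA. All NaCl arrays lay above all others, whereas ABA array 2 fell inside the range of the control. The NaCl difference was 5.29 (SE 0.76, 95% interval 3.54 to 7.03), or 39.0-fold.

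AT1G33055 had log2 signals of 5.27, 7.92 and 7.48 in the control, 11.46, 12.40 and 11.89 with NaCl, and 7.76, 6.17 and 7.23 with ABA. Control array 1 stood below the other control arrays by more than 2 units, and every ABA array lay within the control range. NaCl exceeded the control by 5.02 (SE 0.70, 95% interval 3.41 to 6.64), or 32.5-fold. AT1G33050, whose span it shares in part, was higher by only 0.97 with NaCl (SE 0.23, adjusted p = 0.0128 in limma), which is below the 2-fold limit.

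The adjacent genes AT4G10265 and AT4G10270 differed by similar amounts. AT4G10265, the gene annotated as wound-responsive, had log2 signals of 2.60, 3.92 and 3.90 in the control, 7.47, 8.56 and 9.02 with NaCl, and 5.81, 4.40 and 6.08 with ABA. It was above background on 1 of the 3 control arrays, so the control level lies close to what the array can detect and the fold change depends on signals at the background. The NaCl difference was 4.88 (SE 0.59, 95% interval 3.52 to 6.23). In its own array analysis and at its own threshold, the study listed this gene as upregulated by both NaCl and ABA. The study also measured it by RT-PCR. There it was higher with both treatments, but the log change was smaller with NaCl than with ABA, the reverse of the array order.

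AT4G10270 was above background on all 9 arrays, at 6.84, 9.38 and 8.82 in the control, 12.53, 14.11 and 14.09 with NaCl, and 11.89, 8.49 and 10.61 with ABA. The NaCl arrays did not overlap the control arrays, and ABA array 1 lay only 0.64 below the lowest NaCl array. NaCl exceeded the control by 5.23 (SE 0.97, 95% interval 3.00 to 7.45). The gene that overlaps its end, AT4G10280, differed by 0.35 (SE 0.17, adjusted p = 0.141 in limma).

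AT5G10040 had the largest fitted difference of the 10 genes. On its brighter probe the log2 signal was 1.48, 5.18 and 1.56 in the control, 13.20, 14.89 and 14.37 with NaCl, and 7.76, 1.5 and 9.36 with ABA. Only control array 2 was above background among the controls, and ABA array 2 was as low as the dim control arrays while ABA arrays 1 and 3 were well above background. The fitted NaCl difference was 11.41 (SE 1.93, 95% interval 6.96 to 15.86), and its size rests on control signals at the background.

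The other probe of AT5G10040 was not above background on any control array. A lower limit was therefore taken, in which each control array counts with the dimmest signal marked as above background on it, or with the probe's own signal where that is brighter. The mean of the NaCl arrays was 641-fold higher than this limit. The limit is approximate, since a spot not above background can be brighter than the dimmest signal marked as above it. On control array 2, for example, that dimmest signal was 3.67, and the spot of AT4G10265 at 3.92 was not above background. On this probe the ABA arrays gave 6.88, 1.84 and 8.47, and array 2 was not above background. TGA4, a bZIP transcription factor gene whose span encloses AT5G10040, had a NaCl difference of −0.24 (SE 0.21, adjusted p = 0.377 in limma).

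AT5G66985 varied widely in the control and with ABA. Its log2 signal was 2.46, 6.94 and 5.36 in the control, 12.06, 13.05 and 11.08 with NaCl, and 6.37, 1.76 and 6.41 with ABA. It was above background on 2 of 3 control arrays and 2 of 3 ABA arrays, and the lowest NaCl array stood 4.14 above the highest control array. The NaCl difference was 7.14 (SE 1.49, 95% interval 3.72 to 10.56).

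AT1G19530 was higher on every NaCl array than on any control array and still did not meet the call. Its brighter probe gave log2 signals of 4.74, 10.54 and 8.33 in the control, 12.39, 13.16 and 13.47 with NaCl, and 11.79, 4.50 and 10.86 with ABA. The control arrays spread over 5.80 units and the ABA arrays over 7.29, whereas the NaCl arrays lay within 1.08. The intensities before normalization showed the same spread, at 17.2, 1571 and 299 in the control and 4879, 23.3 and 2761 with ABA.

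The second probe of AT1G19530 gave 1.85, 7.96 and 6.03 in the control, 10.16, 11.09 and 11.42 with NaCl, and 8.93, 1.72 and 8.57 with ABA. On this probe the 1.85 of control array 1 and the 1.72 of ABA array 2 were not above background, so its differences rest in part on such signals. Both probes thus placed the same arrays high and low. The NaCl difference was 5.13 (SE 2.02, 95% interval 0.48 to 9.79) on the brighter probe and 5.61 on the second.

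AT3G27220 had the smallest difference among the 8 genes that met the call. Its log2 signal was 7.48, 8.33 and 8.29 in the control, 10.18, 10.51 and 10.41 with NaCl, and 10.82, 8.54 and 9.67 with ABA. Here the ABA arrays lay on both sides of the NaCl arrays, and every ABA array lay above every control array, by 0.22 at the closest. NaCl exceeded the control by 2.33 (SE 0.52, 95% interval 1.14 to 3.53), or 5.04-fold.

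AT3G10020 stood apart from the other 9 genes. It was bright on all arrays, at 14.33, 15.30 and 14.45 in the control, 14.31, 14.54 and 15.04 with NaCl, and 13.97, 14.79 and 14.67 with ABA, and the 3 groups overlapped. The NaCl difference was −0.058 (SE 0.34, 95% interval −0.84 to 0.72). Its 3 probes gave NaCl differences of −0.26, 0.34 and −0.058, and each was above background on all 9 arrays.

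**Figure D2:**
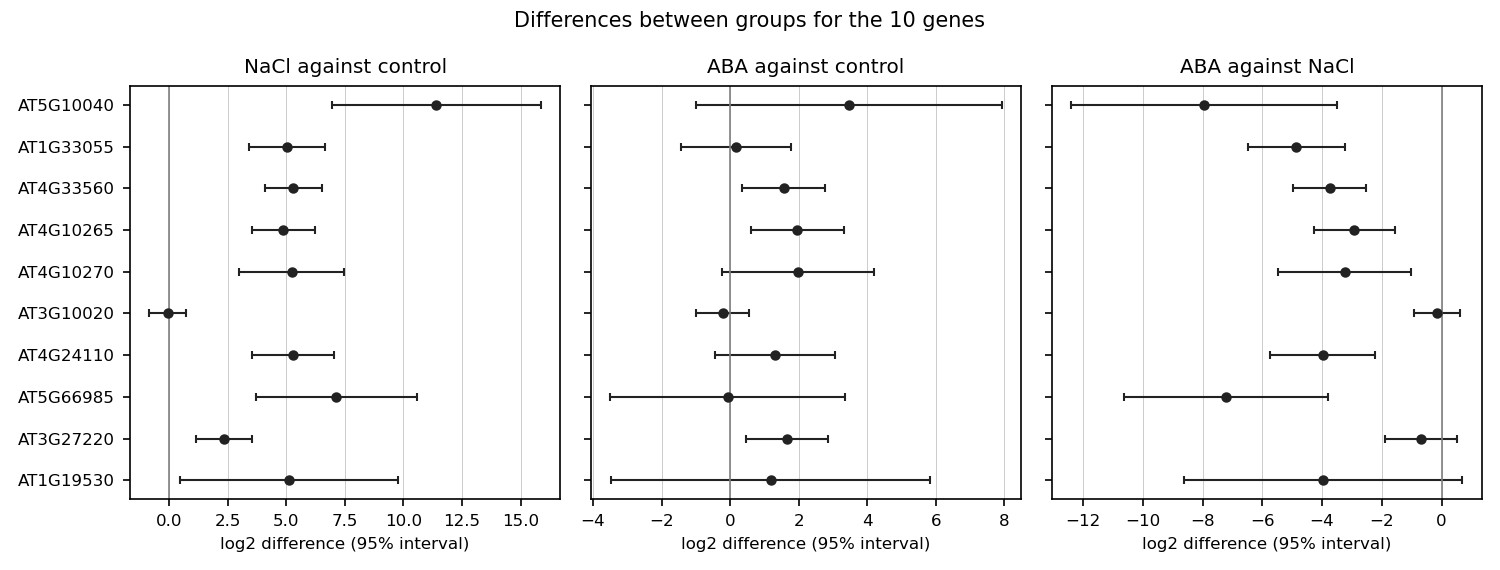
Log2 differences between groups for the 10 genes, with 95% intervals from the limma fit, for the 3 comparisons of the groups. With NaCl the points reach from −0.058 for AT3G10020 to 11.41 for AT5G10040, and in the ABA comparison 3 intervals lie above 0, those of AT4G33560, AT4G10265 and AT3G27220.

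To see whether the genes also differed with the hormone, the ABA arrays were set against the same 3 control arrays that served the NaCl comparison. The median log2 difference of the 10 genes was 1.43, and it was positive for 8 of them. The sign was not settled for 4 genes. The difference of AT5G66985 turned positive in 8 of 25 alternatives, among them scaling to the 75th percentile and no scaling, and that of AT3G10020 in 3 of 26, among them no scaling. Leaving out control array 1 or ABA array 1 turned the differences of AT1G33055 and AT1G19530 negative, and array weights did so for AT1G33055. Of the 10 genes, 0 met the call in limma. At an unadjusted limma p under 0.05 and 2-fold the number was 3, where 5.48% of all genes passed, and by the methods' t-test it was 1 without adjustment and 0 after Benjamini-Hochberg adjustment. Of all genes tested, 1.57% were called in this comparison, 0.833% as higher and 0.737% as lower.

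Every ABA array exceeded every control array in 3 genes, as was the case in 9.22% of all genes tested. For AT4G33560 the difference was 1.56 (SE 0.53, 95% interval 0.35 to 2.78), and ABA array 2 exceeded the highest control array by only 0.041. AT4G10265 differed by 1.96 (SE 0.59, 95% interval 0.60 to 3.31) and AT3G27220 by 1.64 (SE 0.52, 95% interval 0.45 to 2.84).

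In the other 7 genes the ABA and control arrays overlapped and the intervals included 0. AT4G10270 had an ABA difference of 1.98 (SE 0.97), AT4G24110 one of 1.30 (SE 0.76) and AT1G33055 one of 0.17 (SE 0.70). The interval of AT5G10040 (3.46, −0.99 to 7.92) was too wide to exclude a large increase. For AT5G66985 (−0.074, −3.50 to 3.35) and AT1G19530 (1.18, −3.48 to 5.83) large differences in either direction were not excluded. AT3G10020 had the narrowest interval (−0.22, −0.99 to 0.56).

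The ABA arrays were then compared directly with the NaCl arrays, in a difference of means that holds no control array, although the spread was estimated over all 9 arrays. The differences were negative for all 10 genes, except that those of AT3G10020 (0.77) and AT3G27220 (0.13) were positive without scaling between arrays, and that of AT3G10020 also without ABA array 1 (0.096) or NaCl array 3 (0.049). The median was −3.85, and 7 of the 10 genes met the call as lower with ABA, where 20.4% of all genes tested were called, 10.6% as higher and 9.84% as lower. In 8 genes all ABA arrays lay below all NaCl arrays, which held for 26.6% of all genes. The 3 genes that did not meet the call were AT1G19530 (−3.96, SE 2.02), whose groups did not overlap, and AT3G27220 (−0.69, SE 0.52) and AT3G10020 (−0.16, SE 0.34), whose groups did. AT5G10040 (−7.94, SE 1.93) and AT5G66985 (−7.21, SE 1.49) differed most. The call for AT4G10270 (−3.25, SE 0.97) was lost when any of ABA arrays 2 and 3 and NaCl arrays 2 and 3 was left out, and that for AT5G10040 was lost without NaCl array 2.

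The order of the 3 group means was control, ABA, NaCl from low to high in 8 genes. AT5G66985 had ABA at the bottom, below the control, and AT3G10020 had the control at the top. The order of control and ABA changed in some alternatives for AT1G33055, AT1G19530, AT5G66985 and AT3G10020. That of ABA and NaCl did so for AT3G27220 and AT3G10020. ABA and control were neighbours in that order in 9 genes, and their arrays overlapped in 6 of these. ABA and NaCl were also neighbours in 9 genes, with overlapping arrays in 2, AT3G27220 and AT3G10020.

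The 10 genes also varied together among replicate arrays of the same group, a comparison into which the group means do not enter. Each array's deviation from its group mean was taken for each gene. Control array 1 was the lowest of its group for 8 genes and control array 2 the highest for 9. NaCl array 1 was the lowest for 8 genes, and ABA array 2 was the lowest for 9. The mean deviation of the 10 genes was −1.10 on control array 1, 1.09 on control array 2 and −1.95 on ABA array 2, while the median deviation of all genes tested was between −0.060 and 0.087 on every array. With normexp background correction these mean deviations were smaller, at −0.50, 0.51 and −1.05. Among the 7 genes above background on all arrays they were −0.92, 0.86 and −1.53, and the spots of AT5G10040 and AT5G66985 on ABA array 2 were not above background.

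**Figure D3:**
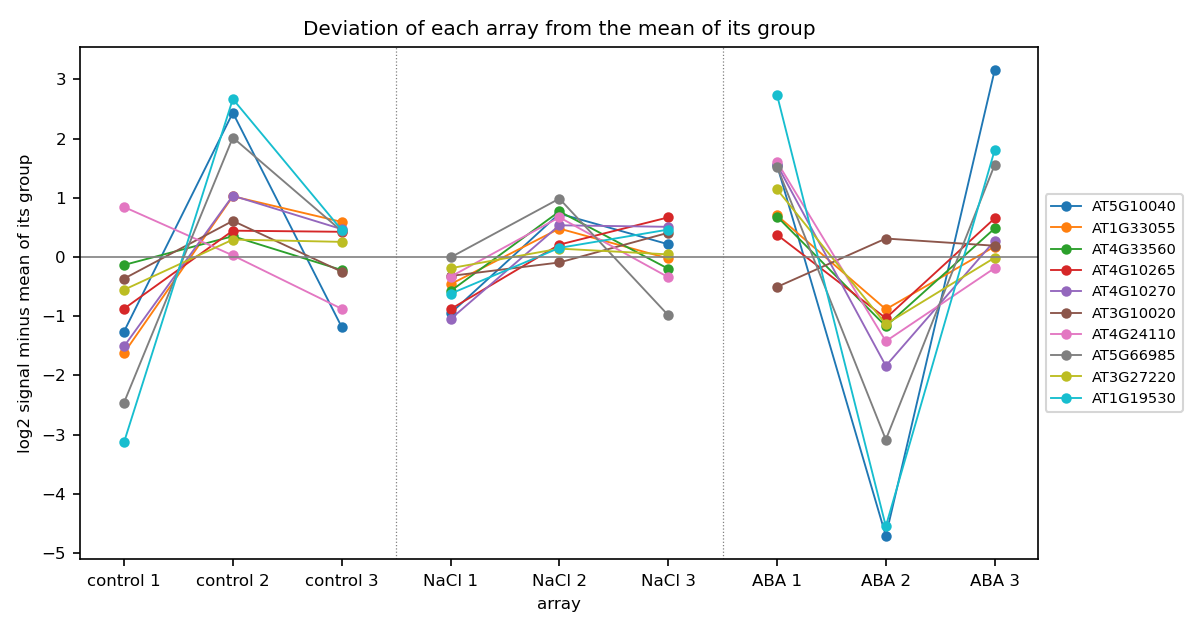
Log2 signal of each of the 10 genes on each array minus the mean of its group, joined within a group. Most lines dip at control 1 and ABA 2 and peak at control 2, and the deepest deviations, −4.71 for AT5G10040 and −4.55 for AT1G19530, are on ABA 2.

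Over the 9 arrays, the deviations of a gene correlated with the mean deviation of the other 9 genes with a median Pearson r of 0.867. AT1G19530 was at the top, with r = 0.968, followed by AT4G10270 (0.926) and AT5G66985 (0.919). The exceptions were AT4G24110 (0.45) and AT3G10020 (0.023). Of the 45 pairs of genes, 42 correlated positively, with a median pair correlation of 0.756 (range −0.50 to 0.94). Across 21074 other genes the correlation with the mean deviation of the 10 genes had a median of −0.054. These correlations rest on 9 arrays with 6 degrees of freedom and on arrays shared by all genes, and they are given as a description. Without ABA array 2 the median pair correlation was 0.516, with 38 of 45 pairs positive, and without any other single array it was 0.721 to 0.826. With other scalings or background correction it was 0.568 to 0.815.

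The spread within groups was large. The pooled standard deviation was 2.86 for AT1G19530, 2.74 for AT5G10040 and 2.1 for AT5G66985, against a median of 0.308 over all genes tested, and it was 0.454 for AT3G10020, the smallest of the 10. Before normalization, control array 1 had the lowest median intensity of its group (127, against 182 and 148), and so did ABA array 2 (191, against 245 and 254), while NaCl array 1 had the highest (147, against 126 and 145). The part of these differences in the deviations was not tested.

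Genes outside the list whose pattern was most like that of the 10 genes were sought among all genes tested, by Pearson correlation over the 9 arrays with the mean of the 10 centred genes. The closest was AT5G19740 (r = 0.989), followed by the cytochrome P450 gene CYP705A19 (AT3G20100, r = 0.988), HRE2 (AT2G47520, also named ERF71, r = 0.988), PCO2 (AT5G39890, r = 0.986) and ADH1 (AT1G77120, r = 0.982). HRE2 encodes an ethylene response factor of group VII, PCO2 one of the plant cysteine oxidases and ADH1 alcohol dehydrogenase, the last enzyme of ethanol fermentation. ADH1, for example, had log2 signals of 9.74, 10.23 and 9.71 in the control, 14.89, 15.78 and 14.96 with NaCl, and 12.80, 9.48 and 12.23 with ABA, so that ABA array 2 was low here as well. The same measure, with the gene itself left out of the mean, was between 0.856 and 0.978 for 9 of the 10 genes and 0.011 for AT3G10020. The group means enter this measure, so genes chosen by their differences between the groups score high through the choice itself. Other genes much higher with NaCl score high as well, and nothing is read from these values. HRE2 was not above background on any control array, so its r rests in part on signals at the background.

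The characterised genes of the low-oxygen response were examined next, as a list of 22 loci. The list was chosen with earlier results of these arrays known. Nothing is therefore read from its counts, and its adjusted p-values are given as a description. HRE2, NIP2;1, SAD6 and PDC1 were above background on every array in the NaCl group alone and entered the test through it. In NaCl-treated seedlings 13 of the 22 were upregulated and 0 downregulated, with a median log2 difference of 3.44, against 9.91% and 13.4% of all genes tested. SAD6, an acyl-carrier-protein desaturase gene, rose by 9.30 (SE 1.99, adjusted p = 0.0082 in limma) and was above background on 1 of 3 control arrays. HRE2 was not above background in the control. With NaCl it was 89.0-fold above its limit there, taken as for AT5G10040 and likewise approximate. Its adjusted p of 0.0022 in limma belongs to the fitted difference of 8.00 (SE 1.23), which rests on control signals at the background. Genes of sugar breakdown and fermentation were among those upregulated, with ADH1 at 5.31 (SE 0.77, adjusted p = 0.0017) and the sucrose synthase gene SUS4 at 5.48 (SE 1.06, adjusted p = 0.0055).

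Several well-known genes of the same list did not pass the test. PDC1, a pyruvate decarboxylase gene, had a NaCl difference of 6.15 (SE 2.16, adjusted p = 0.053), with a spread between arrays as wide as that of AT1G19530. The lactate dehydrogenase gene LDH differed by 0.16 (SE 0.26, adjusted p = 0.648), and HRE1, the group VII factor related to HRE2, by 0.32 (SE 0.45, adjusted p = 0.589). With ABA, 0 of the 22 were upregulated, against 0.833% of all genes tested, and 1 was downregulated, against 0.737%. This was the pyruvate decarboxylase gene PDC2, which fell by 2.29 (SE 0.36, adjusted p = 0.0226), a call that was lost without control array 1, control array 3 or ABA array 1. Against NaCl, 16 of the 22 were lower with ABA and 0 higher, against 9.84% and 10.6% of all genes tested, with a median of −3.19, and the count of 16 fell to 8 without NaCl array 2. HRE2 (−6.03, SE 1.23, adjusted p = 0.0078) and SAD6 (−5.96, SE 1.99, adjusted p = 0.0487) differed most. The lactic acid channel gene NIP2;1, not above background with ABA, was 14.0-fold lower than with NaCl by such a limit. Its adjusted p of 0.00909 in limma belongs to the fitted difference of −5.49 (SE 1.16).

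A second list held 14 further low-oxygen genes with little known function, of which 13 were tested and AT5G45960 did not pass the filter on dim probes. This list was also chosen with earlier results known, so its counts and adjusted p-values are likewise only a description. AT2G17850 and AT3G29970 entered the test through the NaCl arrays alone. With NaCl, 9 of the 13 were upregulated and 0 downregulated, against 9.91% and 13.4% of all genes tested, with a median of 1.57. By the same approximate limit, AT2G17850 was 124-fold higher and AT3G29970 33.1-fold higher, both without a control array above background. Their adjusted p of 0.00136 and 1.28e-04 in limma belong to fitted differences of 7.70 (SE 1.04) and 7.23 (SE 0.51). AT4G39675 rose by 6.12 (SE 0.95, adjusted p = 0.00226). With ABA, 0 of the 13 were called, against 1.57% of all genes tested, and 1, AT2G17850, was called when ABA array 2 was left out. Compared with NaCl, 9 were lower with ABA and 0 higher, against 9.84% and 10.6% of all genes tested. Among the 9 were AT3G29970, 30.5-fold lower by the limit on its ABA signal, and AT4G39675 (−6.49, SE 0.95, adjusted p = 0.0022). The adjusted p of AT3G29970, 1.74e-04 in limma, belongs to its fitted difference of −7.26 (SE 0.51). WR3 (AT5G50200), the single locus outside the 10 whose names in the reference hold the words wound-responsive, had a NaCl difference of −1.04 (SE 0.42, adjusted p = 0.0845).

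**Figure D4:**
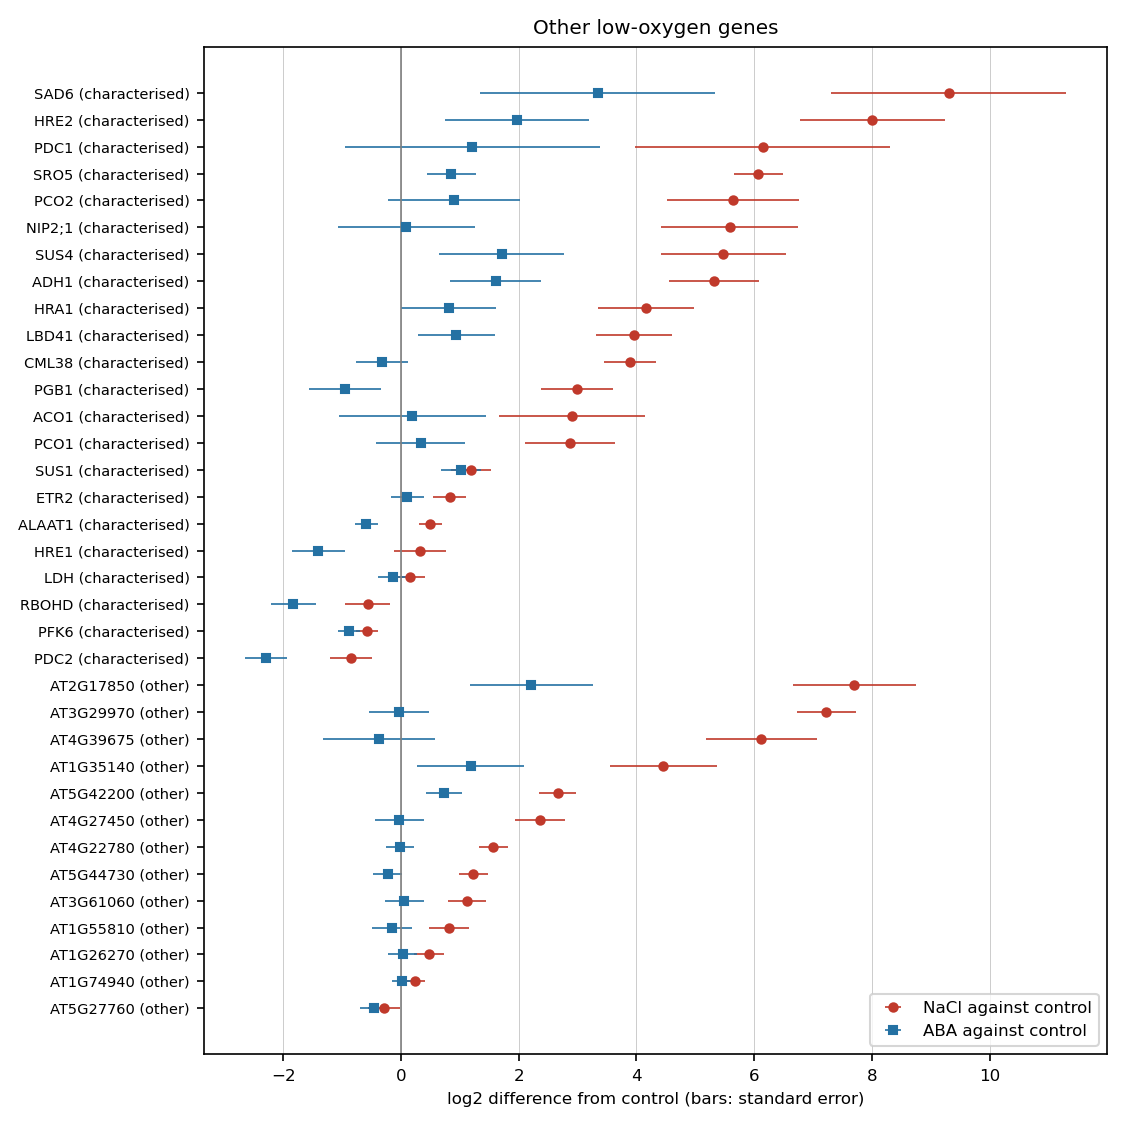
Log2 differences from control of the other low-oxygen genes tested, 22 characterised and 13 further genes, with NaCl as circles and ABA as squares, and standard errors as bars. The NaCl points reach up to 9.30 for SAD6, and the ABA points from −2.29 for PDC2 to 3.34 for SAD6.

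The 2 lists differed in how their members followed the 10 genes within groups. A correlation above 0.8 with the mean deviation of the 10 genes was found for 10 of the 22 characterised genes (45.5%), for 0 of 12 of the further genes that could be evaluated and for 1.96% of all other genes. SUS4, ADH1, PDC1, PCO1, PCO2, HRE2, HRA1, LBD41, ACO1 and SAD6 were the 10, and SRO5, which rose by 6.07 with NaCl, had a correlation of −0.63. The counts depend on the limit of 0.8, as AT2G17850 of the second list reached 0.75. PDC1, HRE2 and SAD6 were not above background on ABA array 2, so their correlations rest in part on signals at the background. No test of the difference between the lists was made.

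Markers of the root and the shoot were looked at in the same whole seedlings. All 6 shoot markers were above background on all arrays, and with NaCl 2 of them were called lower, CA1 (−3.60) and RBCS1A (−1.12, with control array 1 left out because its spot was marked), with a list median of −0.85. The others were not called. GAPA1 (−0.80) and LHCB2.1 (−0.90) were lower on all NaCl arrays, RCA (−0.092) overlapped the control, and CAB1 (0.29) was higher on all NaCl arrays. Of 9 root markers, 5 were tested, while IRT1, EXPA7, EXPA18 and PRP3 did not pass the filter on dim probes. Of the 5, COBL9, RCI3 and MYB36 were called higher with NaCl, and the median difference of the 5 was 2.87. The log2 of the summed signal of the 5 was 7.20 to 8.49 in the control, 9.08 to 12.1 with NaCl and 6.41 to 8.19 with ABA, so that it did not overlap between NaCl and the other groups. However, COBL9, RCI3 and MYB36 were above background on every array in the NaCl group alone and entered the test through it. The count, the median and the summed signal thus lean toward NaCl in advance, and nothing is read from them. The 5 shoot markers with a value on every array, without RBCS1A, gave 19.4 to 19.6 in the control, 19.2 with NaCl and 19.4 with ABA. Among replicates, the median correlation of the root markers with the mean deviation of the 10 genes was 0.11, but the markers differed widely. It was 0.84 for RCI3, 0.62 for MYB36, 0.11 for CASP1, −0.083 for COBL9 and −0.21 for TIP2;3. Except for TIP2;3, these correlations rest in part on signals not above background. The part of the root signal in the NaCl differences of the 10 genes was not tested.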

How the data were processed

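RNA of 9 seedling samples, 3 per group, was hybridised to one-colour Agilent arrays. Per the file headers, the authors obtained the deposited intensity values from Agilent Feature Extraction 10.7.3.1, with local background subtraction and correction of spatial trends and with no step that puts arrays on a common scale. The deposited files also hold marks of 0 or 1, set by that software, for spots above background, saturated, non-uniform or outlying. For the deposited table of log2 values the authors quantile-normalized the 6 control and ABA columns together and the 3 NaCl columns on their own, so it served as an alternative only.

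Control probes and marked spots were left out. Quantile normalization of log2 intensities ran over 9 arrays. Probes entered the test if every array of some group showed them well above background, and each gene was represented by its brightest remaining probe. Probes were matched to loci through RefSeq accessions (34392 probes, 25426 loci), and of the genes tested 3989 had no matched locus. Groups were compared in 1 limma fit of all 9 arrays without a block, with p adjusted over all genes (limma 3.58.1, R 4.3.3, data.table version 1.17.8, jsonlite 2.0.0), and the fit was tested on simulated data. Plots were made in Python 3.11.15 (pandas 2.3.3, matplotlib 3.10.9). Precision is limited by having 3 arrays a group, and p-values measure only the spread between these samples.

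The text names all 10 genes, up to 5 called genes with the largest differences per comparison from the lists, and the 5 genes most like the 10 in pattern. The other list and marker genes given with values were named after those values were seen. The members and lists were chosen with earlier results of these data known. Replicate numbers of the labels did not pair the arrays, and no promoter or protein sequence was used here. The alternatives were the scaling, the background correction, the filter, the marked spots, the probe that stands for a gene, the samples in the fit, array weights, the prior, the replicate and slide blocks, the methods' t-test, the deposited log2 table, the fold threshold and leaving out each array.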

Additional observations from a re-analysis of the deposited data

How the results depend on the processing

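Of the 26 alternatives for each comparison, 24 left the number of the 10 genes called with NaCl within 1.5 times of 8, 22 left that with ABA at 0, and 24 left that between ABA and NaCl within 1.5 times of 7. With NaCl, 5 were called among probes above background on all arrays, where 7 of the genes could be tested, and 3 by the methods' t-test after adjustment for multiple tests (Benjamini-Hochberg). With ABA, 2 were called without scaling, 3 with array weights, 3 with slide as a random block and 1 by the unadjusted t-test. Between ABA and NaCl, 4 were called among probes above background on all arrays and 1 by the adjusted t-test. Leaving out single arrays gave 8 to 9, 0 to 0 and 5 to 7. AT1G19530 met the NaCl call in 5 alternatives, namely normexp correction, array weights, the slide block, only the groups compared and without ABA array 2. For no gene that met the call did an alternative turn the direction. Normexp background correction, which adds an offset of 50 to every signal, lowered the NaCl difference of AT5G10040 to 7.61, of AT5G66985 to 4.90 and of AT4G10265 to 2.04.

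The 2 gene lists were put through the same alternatives, a choice made after seeing the data. For the 22 characterised genes, the NaCl count of 13 became 5 by the adjusted t-test and was 11 to 15 without single arrays. The ABA count of 1 was 3 without scaling, with array weights, with the slide block and by the unadjusted t-test, 2 among probes above background on all arrays and with the robust prior, 0 with only the groups compared, with the replicate block and by the adjusted t-test, and 0 to 1 without single arrays. The count of 16 against NaCl was 9 without scaling, 8 and 2 by the unadjusted and adjusted t-test, and 8 to 15 without single arrays. For the 13 further genes, the counts of 9 with NaCl and 9 against NaCl both became 2 by the adjusted t-test, with 8 to 10 and 7 to 10 without single arrays, and the ABA count of 0 was 1 with array weights and 0 to 1 without single arrays.

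Of all genes, 5368, 362 and 4705 were called in the 3 comparisons. The adjusted t-test called 619, 0 and 1257, normexp correction 3359, 267 and 2859, and the fit without scaling 5885, 1402 and 9029. Without scaling, the median difference of all genes was −0.30, 0.48 and 0.78. Without ABA array 1, 88 genes were called with ABA.

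With the replicate number as a block, 8, 0 and 6 of the 10 genes and 5154, 209 and 4511 of all genes were called. Same-numbered arrays did not deviate together (r from −0.29 to 0.23 over 9 pairs, 2 of them above 0.1), so the numbers were not taken as pairs. The slide as a random block had a consensus correlation of −0.34. Each slide held arrays of a single group, so this block cannot separate slide from treatment. With it the SE of the NaCl difference of AT1G19530 went from 2.02 to 1.04, and nothing is read from the calls that it added. Why the alternatives changed the counts was not tested. The mean deviations over genes above background on all arrays were added after seeing the data.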

Other observations

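The nearest protein-coding genes that do not overlap the 10 genes were also looked at. Of 18 such neighbours, 15 were tested and 5 were called with NaCl, against 23.3% of all genes tested. These 5 were named after their values were seen. AT5G10050, 42 bp from AT5G10040, differed by 2.06 (adjusted p = 0.0048 in limma), AT4G33550, 22 bp from AT4G33560, by 1.31 (adjusted p = 0.0188) and AT3G27210, 3615 bp from AT3G27220, by 3.39 (adjusted p = 2.85e-05). AT4G10290, the neighbour of AT4G10270, was lower by −5.13 (adjusted p = 0.0034), and NACA5, the neighbour of AT1G33055, by −1.72 (adjusted p = 0.0054).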
